A study of Mus musculus with 16 samples.

Results

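The heavy chain of an antibody is assembled by joining 1 variable (V) segment to a diversity (D) and a joining (J) segment, and the V segment chosen contributes most of the antigen-binding domain. In the mouse the V segments of the heavy chain, the Ighv genes, lie in tandem on chromosome 12 and are sorted into families by sequence likeness. Each mature B cell expresses mainly the V segment it has rearranged, so that reads on Ighv genes in RNA of a B cell population describe how its heavy chains are distributed over the segments. The members described here were the genes of the RNA-seq table whose symbol starts with Ighv, selected on their normalized count, whose mean over the 8 libraries had to be at least 10. There were 96 of them among 142 Ighv genes of the table and 27928 genes in all.

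The libraries came from splenic B cells of mice aged 8 to 12 weeks, sorted into follicular (FO, CD21lo CD23hi) and marginal zone (MZ, CD21hi CD23lo) cells. FO B cells recirculate through lymphoid follicles and serve T-dependent responses, while MZ B cells stay beside the marginal sinus and respond early to blood-borne antigen. WT mice were C57BL/6, and Gtf2i cKO mice carried Gtf2i fl/fl, with the gene for the transcription factor TFII-I deleted in B lineage cells. The WT mice did not carry the alleles used for the deletion, so these alleles and the loss of the gene cannot be told apart. There were 2 libraries in each of the 4 groups (WT FO, WT MZ, cKO FO and cKO MZ), and p-values measure the spread between these samples, which nothing in the sources used here says came from separate mice. In bulk RNA, fewer cells with a V segment and less RNA per cell cannot be told apart.

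The 8 libraries held 21546552 to 25083552 reads on genes. Gtf2i itself had normalized counts of 2040 and 1992 (WT) and 1523 and 1531 (cKO) in FO libraries and of 2864 and 2471 (WT) and 1782 and 1889 (cKO) in MZ libraries, and its cKO to WT difference of -0.47 on the log2 scale (SE 0.0672) had an adjusted p of 0.0793 by limma. Fcer2a, which encodes CD23, was at 24802 to 41973 in FO and 3070 to 6708 in MZ, and all 4 MZ markers tested (Cr2, Cd1d1, Cd9 and S1pr3) were called higher in MZ, as the sort labels have it. The 4 cKO libraries expressed Y-linked genes such as Ddx3y at 2682 to 5514, against 0.998 to 6.34 in the 4 WT libraries, and Xist, expressed from the inactive X of females, was at 25930 to 47002 in WT and 21.7 to 89.7 in 3 cKO libraries. In cKO FO 1 Xist was at 14748 and each of the 4 Y-linked genes listed was lowest among the cKO libraries, so that this library had reads of both. Sex and genotype cannot be told apart over these libraries, and without cKO FO 1 limma called 0 members between cKO and WT, as with it.

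The 96 members comprised 90 V genes and 6 V pseudogenes of 15 families. All lay on the minus strand of chr12:113578504-116000461 (GRCm38), a stretch of 2.42 Mb, with Ighv5-2 nearest the D segments and Ighv1-85 farthest from them. The segments are so alike that 50-base reads cannot always be placed: a median of 79.2% of a member's 50-base words occurred in no other Ighv transcript, and in 7 members (Ighv2-2, Ighv1-50, Ighv1-52, Ighv1-53, Ighv1-61, Ighv1-72 and Ighv1-84) under 50% did. For Ighv1-72 it was 7.49%, and values of these 7 members are uncertain. The 46 Ighv genes under the threshold, 28 of them pseudogenes, held 0.259% to 0.886% of the Ighv counts per library. The nearest of them was Ighv1-37, with a mean of 8.69, and the members just above the threshold were Ighv1-70 at 11.1 and Ighv8-7 at 11.99.

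A V segment is joined through a recombination signal at its 3′ end, where the RAG proteins cut, and is transcribed from a promoter that usually carries the octamer bound by Oct-1 and Oct-2. The 3′ ends of the V exons of members that carried the differences described below are shown with the 39 bases that follow, 5′ to 3′ on the minus strand of GRCm38, with the first 7 bases of the recombination signal (the heptamer) in capitals. Ighv6-3 and Ighv10-1 were higher in MZ, and Ighv1-5 and Ighv14-4 were higher in FO. Of the members, Ighv5-2 is nearest the D segments, and Ighv8-2 and Ighv1-67 had almost no reads in a pair of WT libraries.
Ighv6-3 (chr12:114391673-114391741): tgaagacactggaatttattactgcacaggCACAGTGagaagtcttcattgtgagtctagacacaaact
Ighv10-1 (chr12:114478966-114479034): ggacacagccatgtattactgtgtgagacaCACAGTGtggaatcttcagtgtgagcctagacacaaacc
Ighv1-5 (chr12:114513291-114513359): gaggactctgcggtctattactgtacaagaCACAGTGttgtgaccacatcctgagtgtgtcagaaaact
Ighv14-4 (chr12:114176399-114176467): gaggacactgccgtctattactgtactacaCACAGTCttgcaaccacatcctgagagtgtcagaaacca
Ighv5-2 (chr12:113578465-113578533): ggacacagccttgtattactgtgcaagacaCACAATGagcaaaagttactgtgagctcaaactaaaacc
Ighv8-2 (chr12:114462252-114462320): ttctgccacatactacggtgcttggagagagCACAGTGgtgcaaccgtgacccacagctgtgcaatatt
Ighv1-67 (chr12:115603901-115603969): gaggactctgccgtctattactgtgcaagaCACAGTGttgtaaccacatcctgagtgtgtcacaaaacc

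The heptamer CACAGTG stood within 3 bases of the 3′ end in 74 of 96 members, among them 8 of the 10 members called higher in FO and all 4 called higher in MZ. In Ighv14-4 and Ighv5-2 it differed from CACAGTG at 1 base. The same 7 letters occur on either strand in 6.81% of the 300-base promoter windows of RefSeq genes (GRCm38).

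The octamer ATGCAAAT occurred on either strand within 250 bases upstream of the annotated start in 79 of 96 members, against 526 of 32817 RefSeq windows (1.60%). It is shown in capitals for the same segments, with 10 bases on each side.
Ighv6-3 (chr12:114392279-114392306): gcacacagaaATGCAAATcatatttccc
Ighv10-1 (chr12:114479555-114479582): gcaggaagatATGCAAATagggccttcc
Ighv1-5 (chr12:114513854-114513881): gctcatgattATGCAAATtcattgaatc
Ighv5-2 (chr12:113579104-113579131): gcaggaccacATGCAAATaagccttctc
Ighv8-2 (chr12:114462791-114462818): tcatgagacaATGCAAATctctccaggc
Ighv1-67 (chr12:115604466-115604493): tctcatgaatATGCAAATcaggtgagtc

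These letters were not found in the window of Ighv14-4. The 79 members with the octamer had a median normalized count of 114 and the 17 without it one of 104. Members of both kinds ran from about the threshold upwards, to 873 with the octamer and to 1021 without it.

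A pair of WT libraries stood apart from the other 6, a pattern picked out after the values were seen. In the WT FO and the WT MZ library numbered 1, 7 members had at most 3 reads each: Ighv8-2, Ighv1-67, Ighv1-38, Ighv3-2, Ighv4-2, Ighv1-70 and Ighv8-7. Ighv8-2 had 0 reads in both, and 57.1, 48.0, 45.9, 62.4, 25.9 and 29.9 normalized counts in WT FO 2, WT MZ 2, cKO FO 1, cKO FO 2, cKO MZ 1 and cKO MZ 2. Ighv1-67 had 0 and 0.963 normalized counts in the 2 libraries and 34.0 to 84.7 in the other 6. The 2 libraries therefore lacked segments that every other library expressed, in FO and MZ alike.

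Of all 27928 genes, 5 had at most 3 reads in both of these libraries and at least 10 normalized counts in each of the others, and all 5 were Ighv genes (Ighv1-67, Ighv8-2, Ighv4-2, Ighv3-2 and Ighv1-38). The other same-numbered pairs had 0, 1 and 0 such genes. Of the 7 depleted segments, 5 are annotated pseudogenes, and the pseudogene members together held 0.116% and 0.0281% of the summed Ighv count in WT FO 1 and WT MZ 1, against 0.554% to 1.05% in the other 6 libraries. The V exon of 2 of the 7 was open in a reading frame, against 88 of the other 89 members.

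Depletion in the same 2 libraries reached further than these 7 segments. Ighv5-2, the member nearest the D segments, was at 19.0 and 2.89 in WT FO 1 and WT MZ 1 and at 68.8 to 127 elsewhere. Ighv12-3 was at 7.98 and 7.71 against 36.9 to 70.5, and Ighv1-11 at 8.98 and 12.5 against 39.2 to 96.6. In all, 35 members had lower normalized counts in both of these libraries than in each other library and 0 had higher ones. All 6 pseudogene members were among the 35. The summed Ighv count was itself lowest in these 2 libraries, at 13769 and 13717 against 17181 to 21420, and the 35 were not counted by share. By share Ighv1-26, one of the 35, was at 5.46% in WT FO 1 and 6.58% in WT MZ 1, its lowest and its highest value. When the locus was cut by position into 4 stretches of 24 members each, numbered from the D segments outwards, 11 of the 35 lay in stretch 1, 11 in stretch 2, 9 in stretch 3 and 4 in stretch 4.

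Other transcripts of the heavy chain locus moved with this. The 11 heavy chain D segments of the table had 2 and 0 reads in WT FO 1 and WT MZ 1, and 29 to 56 in each other library. Ighg3, the constant gene of IgG3, was at 12499 and 10991 normalized counts in them and at 274 to 1410 in the other 6. Ighm, the constant gene of IgM, was at 122720 and 142820 against 173900 to 225290. Their part in the differences below was not tested, and the comparisons by gene, family and position are also given without these 2 libraries.

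**Figure D1:**
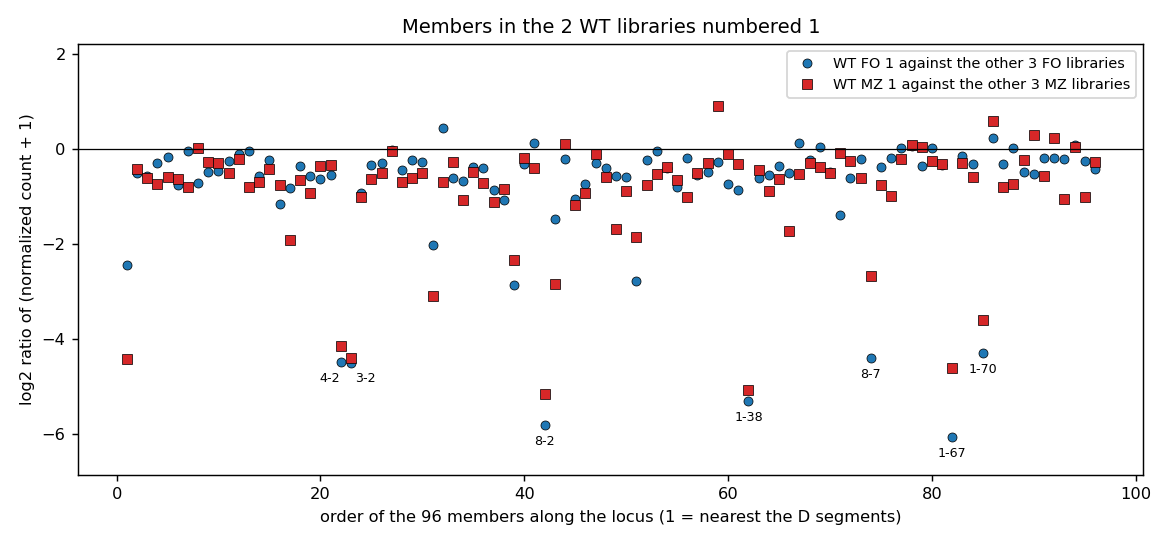
Log2 ratio of each member's normalized count plus 1 in the WT FO (circles) and WT MZ (squares) library numbered 1 to the mean of the other 3 libraries of the same subset, in locus order. The 7 labelled members had at most 3 reads in both libraries, and the medians over the 96 members were -0.41 in FO and -0.61 in MZ.

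Summed over the members, the FO libraries held 13769 and 18639 (WT) and 17181 and 18912 (cKO) normalized counts, and the MZ libraries 13717 and 21420 (WT) and 18112 and 17315 (cKO). This was 0.0564% to 0.0943% of the reads on genes. The lowest sums were those of the WT libraries numbered 1, and the FO and MZ ranges overlapped, as did those of cKO and WT. The mean was 17125 ± 2363 (SD, n = 4) in FO and 17641 ± 3163 in MZ, and 17880 ± 801 in cKO and 16886 ± 3803 in WT.

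No segment dominated. Over the 8 libraries Ighv1-26 held the largest mean share of the summed Ighv count, 5.88%, followed by Ighv3-6 and Ighv1-9 at 4.97% each, Ighv6-3 at 4.07%, Ighv1-82 at 3.98%, Ighv5-17 at 3.16%, Ighv9-3 at 3.04%, Ighv1-22 at 2.86%, Ighv1-80 at 2.83% and Ighv1-18 at 2.67%. The median member held 0.642%. Ighv1-26 was the highest member in 6 libraries, while Ighv1-9 led in cKO FO 1 with 5.88% and Ighv3-6 in cKO MZ 2 with 6.33%. Ighv9-3, Ighv3-6, Ighv1-9, Ighv1-26 and Ighv1-82 were among the 10 highest in all 8 libraries, and 13 to 18 members made up 50% of the Ighv count of a library. These shares were not divided by segment length.

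The order of Ighv1-26, Ighv3-6 and Ighv1-9 was within the spread between libraries. Ighv1-26 had normalized counts of 751 and 1091 (WT) and 994 and 1075 (cKO) in FO and of 902 and 1254 (WT) and 1019 and 1078 (cKO) in MZ. Ighv1-9 was at 616, 792, 1010 and 990 in FO and at 544, 1238, 906 and 890 in MZ, with WT before cKO. Ighv3-6 was at 650, 835, 758 and 948 in FO and at 711, 955, 931 and 1096 in MZ. FO and MZ values of all 3 overlapped.

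Usage was more even in FO than in MZ B cells. The effective number of Ighv genes, the exponential of the Shannon entropy of the shares, was 57.9 and 63.3 (WT) and 60.8 and 62.0 (cKO) for FO and 49.1 and 56.1 (WT) and 54.0 and 52.7 (cKO) for MZ. Every FO library was above every MZ library, at 61.0 ± 2.28 and 53.0 ± 2.92 (SD, n = 4), and without the WT libraries numbered 1 the means were 62.0 and 54.3, again without overlap. The 10 highest members of each library held 35.3% to 36.9% of the Ighv count in FO and 39.4% to 44.8% in MZ. By genotype the effective numbers overlapped, at 57.4 ± 4.71 in cKO and 56.6 ± 5.84 in WT.

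Across the 96 members, shares of 2 libraries had a Spearman rho of 0.939 to 0.977 in the 12 pairs of libraries of 1 subset and 0.889 to 0.942 in the 16 pairs of an FO with an MZ library. These are descriptions across segments, which share locus, sequence and read placement in every library.

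Family 1, which covers the distal part of the locus with 46 members, held the largest share of the Ighv count everywhere. It was 54.4% and 54.0% (WT) and 54.5% and 52.4% (cKO) in FO libraries, and 50.4% and 50.9% (WT) and 49.4% and 46.7% (cKO) in MZ libraries. The mean was 53.8% ± 0.967 in FO and 49.4% ± 1.87 in MZ (SD, n = 4), and FO and MZ libraries did not overlap. Family 5, the next largest with 9 members close to the D segments, held 10.2% to 12.3% in FO and 9.07% to 13.9% in MZ, which overlapped.

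Family 6, which has only Ighv6-3 and Ighv6-6 as members, was higher in MZ. Its share was 4.76% and 4.10% (WT) and 4.09% and 3.63% (cKO) in FO, and 8.77% and 7.11% (WT) and 7.82% and 7.90% (cKO) in MZ. Every MZ library was above every FO library, with means of 7.90% ± 0.681 and 4.14% ± 0.466. Family 10 (Ighv10-1 and Ighv10-3) held 4.80% ± 1.07 in MZ and 2.92% ± 0.218 in FO, family 7 (3 members) 2.88% ± 0.653 and 1.89% ± 0.0668, and family 2 (7 members) 5.14% ± 0.247 and 4.34% ± 0.149. In each of the 4 families the MZ libraries were all above the FO libraries.

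Shares that were higher in FO were those of families 1, 8, 14 and 15. Family 8 (6 members) held 4.67% to 5.76% in FO and 2.76% to 4.33% in MZ. Family 14 (4 members) held 3.28% ± 0.0928 in FO and 2.09% ± 0.199 in MZ, with little spread in FO. Family 15, which is Ighv15-2 alone, held 0.348% to 0.403% in FO and 0.0562% to 0.173% in MZ.

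In all, 8 of 15 families did not overlap between the 4 FO and the 4 MZ libraries. For single genes, the normalized counts of the 4 FO and 4 MZ libraries did not overlap in 36.5% of the 14761 genes tested and in 14 of the 96 members (14.6%), 9 of them higher in FO and 5 higher in MZ. As shares of the summed Ighv count, 26 members (27.1%) did not overlap, 19 higher in FO and 7 higher in MZ. Shares add up to a fixed total, so that a higher share of some members lowers those of others. The values over all genes are for normalized counts and have no counterpart by share. Without the WT libraries numbered 1, where fewer libraries can overlap, it was 33 members by normalized count, beside 45% of all genes, and 40 by share. Without the WT libraries numbered 1, 10 families did not overlap, the same 8 with families 12 and 13, and the mean share of family 6 was 7.61% in MZ and 3.94% in FO. When the highest member of each family was left out, families 6, 7 and 10 overlapped: what was left of them, in the same percentages of the Ighv count, was 1.89% to 2.42% in MZ and 1.45% to 2.17% in FO for Ighv6-6, 0.281% to 0.880% and 0.551% to 0.671% for Ighv7-1 with Ighv7-4, and 1.38% to 2.14% and 1.36% to 1.49% for Ighv10-3. The means of what was left were still higher in MZ for family 6 (2.24% against 1.66%) and family 10 (1.79% against 1.42%), and lower for family 7 (0.535% against 0.600%). Families 1, 2, 8 and 14 still did not overlap without their highest members, Ighv1-26, Ighv2-2, Ighv8-8 and Ighv14-3. None of these is among the members called between FO and MZ below. Called members stayed in for families 1, 8 and 14, such as Ighv14-4 in family 14, so that their part was not tested.

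**Figure D2:**
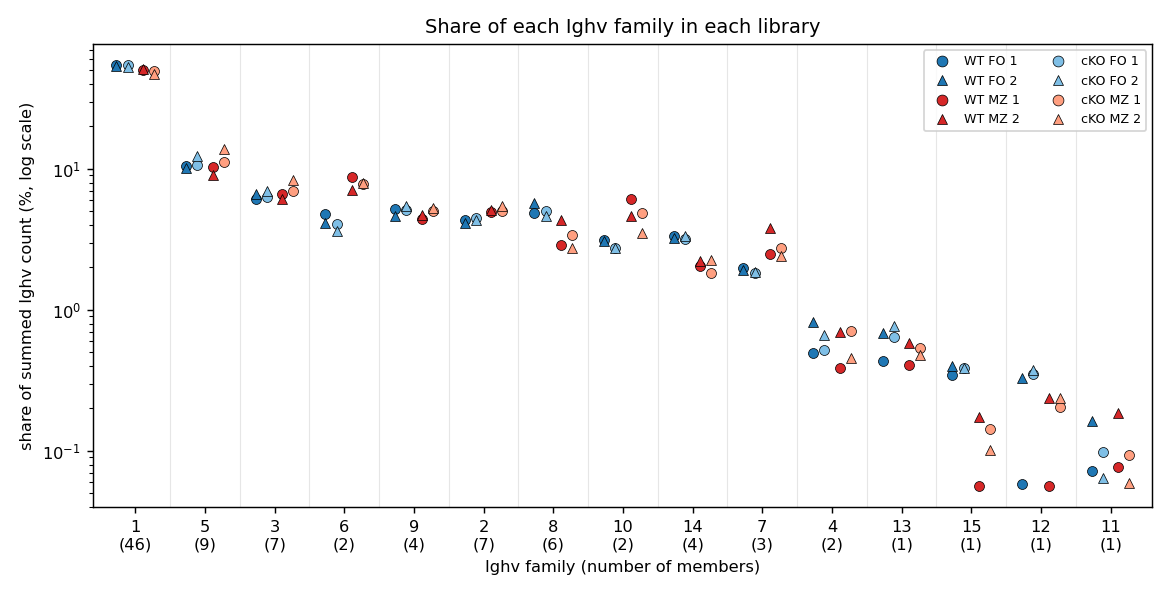
Share of the summed Ighv count held by each family in each of the 8 libraries, in percent on a log scale, with families ordered by mean share and the number of members in brackets. Family 6 is at 7.11% to 8.77% in the 4 MZ libraries and at 3.63% to 4.76% in the 4 FO libraries.

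At the level of single genes, limma on log2(normalized count + 1) over 14761 genes, with no replicate block, called 10 members higher in FO and 4 higher in MZ (adjusted p up to 0.05 and at least 1.5-fold). That was 10.4% and 4.17% of the members. Of all genes tested, 7.45% were called higher in FO and 10.9% higher in MZ, so that 14 of 96 members called in either direction stood beside 18.4% of all genes. DESeq2 and edgeR on the reads recovered from the normalized counts called 15 and 14 members, where they called 18.1% and 18.4% of all genes. With the replicate number as a block limma called 14 and 5, and with a block within each genotype, chosen after seeing the data, 19 and 5. The median difference (FO minus MZ, log2) was 0.20 over the members and 0.00452 over all genes tested, and 60 members were above 0 (57 without the WT libraries numbered 1).

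Ighv6-3 had the smallest p of all members. It had normalized counts of 357 and 475 (WT) and 446 and 413 (cKO) in FO, and of 888 and 1117 (WT) and 991 and 949 (cKO) in MZ. All MZ values were above all FO values, and the gene was 2.33-fold higher in MZ (FO minus MZ -1.22, SE 0.118, adjusted p = 0.000236, limma). Over the members its mean share ranked the fourth, and it held 5.66% of the Ighv count in MZ and 2.48% in FO. Ighv6-6, the other member of family 6, was at 256 to 298 in FO and 315 to 426 in MZ, a difference of -0.48 (SE 0.107, adjusted p = 0.0116) that was under 1.5-fold.

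Ighv10-1 was at 228 and 302 (WT) and 236 and 259 (cKO) in FO, and at 546 and 621 (WT) and 548 and 369 (cKO) in MZ. It was 2.01-fold higher in MZ (-1.01, SE 0.155, adjusted p = 0.00213) without overlap. Ighv1-53 was at 140, 197, 193 and 199 in FO and 238, 373, 335 and 305 in MZ, again with WT first (-0.77, SE 0.176, adjusted p = 0.0122), and 42.4% of its 50-base words were its own. Ighv7-3, a segment of the family that also holds the main anti-phosphorylcholine segment Ighv7-1, was at 193, 252, 212 and 222 in FO and 301, 697, 342 and 351 in MZ (-0.86, SE 0.245, adjusted p = 0.0294). All FO values of these 3 members were below all MZ values. The high WT MZ 2 library made up much of the spread of Ighv7-3. Without cKO MZ 1, Ighv1-53 had a difference of -0.61 and an adjusted p of 0.0532.

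Among the members higher in FO, Ighv1-5 had the smallest p. It was at 155 and 240 (WT) and 232 and 303 (cKO) in FO, and at 43.3 and 70.6 (WT) and 102 and 79.4 (cKO) in MZ. FO and MZ did not overlap, and the segment was 3.17-fold higher in FO (1.67, SE 0.226, adjusted p = 0.0012). Ighv14-4 was at 177, 214, 202 and 224 in FO and 60.7, 130, 46.8 and 83.5 in MZ, WT first, which was 2.71-fold higher in FO (1.44, SE 0.278, adjusted p = 0.00606). Ighv1-12 was at 124, 161, 147 and 130 in FO and 39.5, 76.1, 82.7 and 45.4 in MZ, 2.38-fold higher in FO (1.25, SE 0.274, adjusted p = 0.0104). All FO values of these segments, too, were above all MZ values.

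The other members higher in FO were expressed at lower levels. Ighv8-6 had the largest fold of all members, 4.26, at 10.98 and 23.8 (WT) and 28.0 and 39.3 (cKO) in FO and 4.82 and 6.34 (WT) and 1.99 and 7.22 (cKO) in MZ (2.09, SE 0.441, adjusted p = 0.00885). Ighv15-2 was at 47.9, 75.2, 66.1 and 73.5 in FO and 7.71, 37.1, 25.9 and 17.5 in MZ (1.70, SE 0.455, adjusted p = 0.0235). Neither overlapped between subsets. Ighv1-49, Ighv1-63, Ighv9-2, Ighv1-36 and Ighv1-72 were called with differences of 0.69 to 1.54 and adjusted p of 0.0256 to 0.0482 by limma, and FO and MZ values of Ighv1-36 and Ighv1-72 overlapped in part. Ighv1-72, known for its use in responses to the hapten NP, is the member whose sequence words are 7.49% its own.

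**Figure D3:**
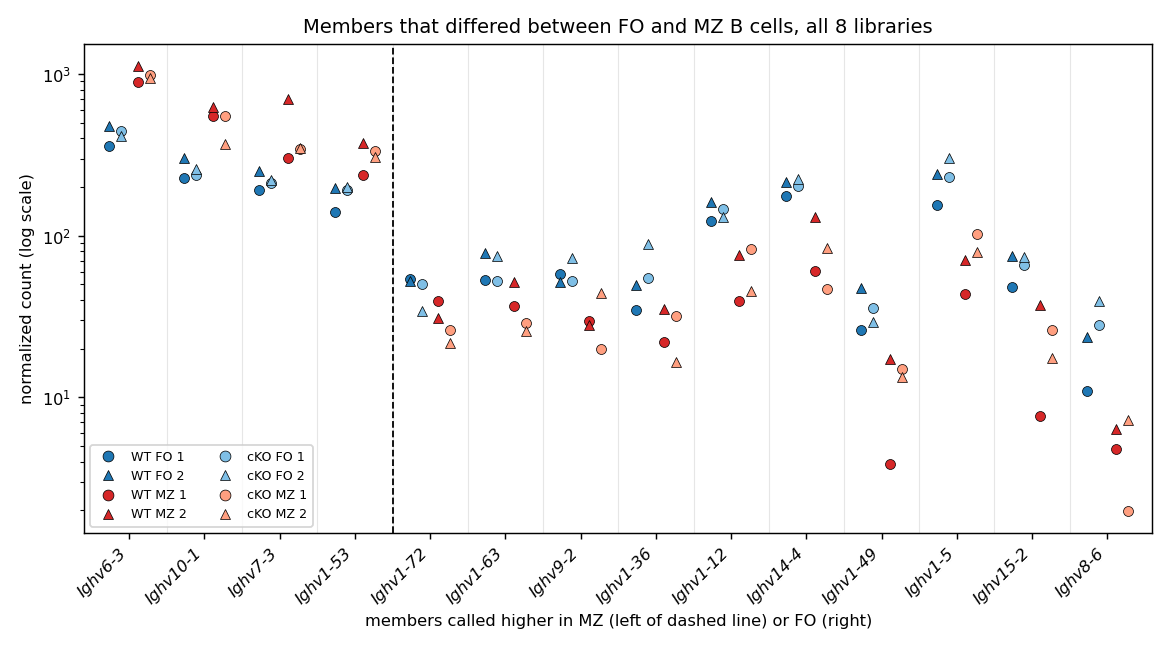
Normalized counts, on a log scale, of the 14 members called between FO and MZ in each of the 8 libraries, ordered by difference. The 4 members left of the dashed line are higher in MZ and the 10 right of it higher in FO, with WT and cKO libraries of a subset side by side.

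Ighv6-3, Ighv10-1, Ighv1-5, Ighv14-4, Ighv8-6 and Ighv1-12 were called under all 18 alternatives to the scaling, filter, test and set of libraries. Without both WT libraries numbered 1 their differences were -1.20, -0.95, 1.65, 1.23, 2.27 and 1.11, with adjusted p of 0.00021 to 0.0218, and 6 members were called higher in MZ and 8 higher in FO. Ighv7-3 then had a difference of -1.07 (adjusted p = 0.000903), while Ighv1-63, Ighv9-2, Ighv1-36 and Ighv1-72 were no longer called (adjusted p = 0.0504 to 0.113). Ighv15-2 and Ighv1-49 were not called without WT FO 2 or without any 1 of the cKO libraries (adjusted p up to 0.0807 and 0.0996), and Ighv7-3 was not without WT FO 1, WT MZ 2 or any 1 of the cKO libraries (adjusted p up to 0.0891). Leaving out 1 library moved the count higher in FO to 4 without WT FO 2, 5 without cKO FO 2, cKO MZ 1 or cKO MZ 2, 6 without WT MZ 1 or cKO FO 1 and 20 without WT MZ 2, and the count higher in MZ to 8 without WT MZ 1 and 2 without cKO MZ 1.

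Along the locus the calls were counted by stretch, and their spread was not tested. Of the 4 stretches of 24 members, stretch 1 had 0 called members, stretch 2 had 3 higher in FO and 3 higher in MZ, stretch 3 had 5 and 1, and stretch 4 had 2 and 0. Stretch 2, chr12:114059845-114538965, holds Ighv6-3, Ighv10-1 and Ighv7-3, and its share of the Ighv count was 29.7% to 30.5% in MZ and 25.5% to 26.5% in FO. It was the single stretch whose FO and MZ libraries did not overlap, with and without the WT libraries numbered 1. The 3 named members are part of this share, so that it is not separate from their calls.

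**Figure D4:**
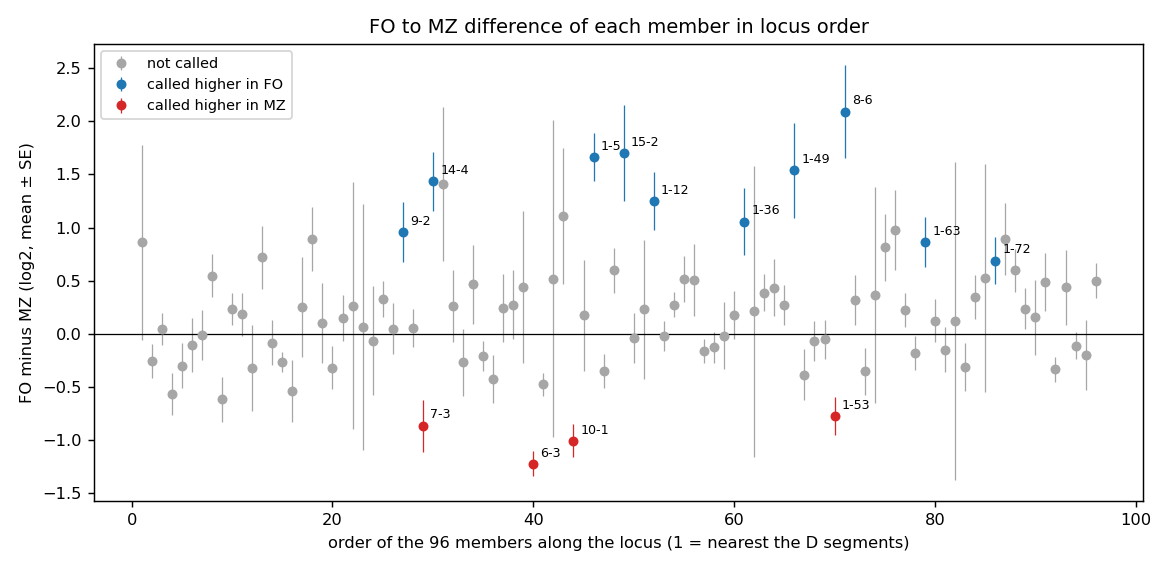
Difference between FO and MZ (log2, with its standard error) of each of the 96 members, in order along the locus from the D segments outwards. The 10 members called higher in FO and the 4 called higher in MZ are labelled, and they lie between members with no call.

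Over all 96 members the differences in WT and in cKO, which share no library, had a Pearson r of 0.692 and a Spearman rho of 0.671, and 76 members had the same sign. Within WT alone limma called 1 member higher in FO and 3 higher in MZ, where 4.62% and 7.41% of all genes were called. Within cKO it called 5 and 3, where 5.54% and 8.18% were. The count higher in FO within WT was 10 without WT MZ 2, and within cKO it was 0 without cKO FO 1, cKO FO 2 or cKO MZ 1. Within WT the count higher in MZ was 1 without WT FO 1 or WT MZ 2 and 7 without WT MZ 1, and within cKO it was 1 without cKO FO 1, cKO FO 2 or cKO MZ 1.

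For the interaction of genotype and subset, limma called 0 members and 0% of all genes, edgeR 0 members and DESeq2 0, with 0 members and 0.637% of all genes at an unadjusted p under 0.05. It also called 0 members without the WT libraries numbered 1. The smallest p belonged to Ighv2-6 (0.90, SE 0.427), Ighv1-34 (0.83, SE 0.453) and Ighv6-6 (-0.39, SE 0.214), each with an adjusted p of 1 after rounding.

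Between cKO and WT, limma called 0 of 96 members in either direction, beside 0.0948% of all genes called higher in cKO and 0.0135% higher in WT. DESeq2 and edgeR also called 0 members and 0.467% and 0.108% of all genes, and 7 members (7.29%) had an unadjusted p under 0.05, as did 6.63% of all genes. Within FO and within MZ, limma called 0 members, as did DESeq2 and edgeR, where limma called 0.0677% and 0.0339% of all genes, and 2 members in FO (2.08%, beside 2.59% of all genes) and 5 in MZ (5.21%, beside 4.04%) had an unadjusted p under 0.05. The median difference (cKO minus WT, log2) was 0.19 over the members and -0.0116 over all genes, and 65 members were above 0. Without the WT libraries numbered 1 this direction turned, with a median of -0.14 over the members and -0.0207 over all genes and 23 members above 0. Normalized counts of the 4 cKO and 4 WT libraries did not overlap in 4 members, 4.17% of them, and in 2.09% of all genes. Ighv5-4, Ighv5-16 and Ighv1-22 were higher in cKO and Ighv1-61 higher in WT. By share the balance turned. Of 3 members that did not overlap, Ighv5-4 was higher in cKO (2.45% to 2.70% against 1.97% to 2.25%), while Ighv1-69 (1.11% to 1.24% against 1.53% to 2.40%) and Ighv1-80 (2.02% to 2.57% against 2.79% to 4.44%) were higher in WT. Without the WT libraries numbered 1, 20 members did not overlap by normalized count, 3 higher in cKO and 17 higher in WT, beside 16.7% of all genes, and by share it was 6 and 6.

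The member with the smallest p was Ighv1-22, at 347 and 424 (FO) and 395 and 459 (MZ) in WT and at 483 and 618 (FO) and 628 and 604 (MZ) in cKO (0.52, SE 0.117, adjusted p = 0.371). Ighv5-16 was at 218, 254, 216 and 262 in WT and 271, 451, 307 and 490 in cKO, FO first (0.64, SE 0.209, adjusted p = 0.667). Both were higher in every cKO library than in every WT library, without passing the test. Ighv5-17 (0.36), Ighv1-5 (0.57) and Ighv5-4 (0.39) had adjusted p of 0.534 to 0.739.

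On the other side, Ighv1-80 was at 384 and 532 (FO) and 610 and 655 (MZ) in WT and at 412 and 382 (FO) and 465 and 439 (MZ) in cKO (-0.33, SE 0.115, adjusted p = 0.673). Ighv1-69, Ighv1-61, Ighv1-72 and Ighv1-82 had differences of -0.51 to -0.19 with adjusted p of 0.749 to 0.856. Without both WT libraries numbered 1, Ighv1-69 was called lower in cKO (-0.88, adjusted p = 0.0429), the single call between genotypes under any alternative. It was at 211 and 292 (FO) and 254 and 513 (MZ) in WT and at 190 to 224 in cKO.

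The members with the widest fitted genotype gaps were segments low in the 2 WT libraries numbered 1. Ighv1-38, Ighv8-2, Ighv3-2, Ighv1-67, Ighv4-2 and Ighv1-70, all among the 7 with at most 3 reads there, had cKO minus WT differences of 1.95 to 2.51 with adjusted p of 0.791 to 0.865 by limma, and of -0.69 to 0.0906 without these libraries. Ighv5-2 had a cKO minus WT difference of 1.70 (SE 0.918, adjusted p = 0.812), and of -0.01 without them. For Ighv12-3 the difference was 1.20 (SE 0.712, adjusted p = 0.828), and -0.14 without them. None of these members was called with or without these libraries.

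By family, 1 of 15 shares did not overlap between cKO and WT, that of family 5, with 10.7% to 13.9% in cKO and 9.07% to 10.5% in WT. Without the WT libraries numbered 1, families 9 and 11 did not overlap either, but then only 2 WT libraries stand against 4 and fewer can overlap. Family 11 is Ighv11-2 alone, at 10 to 44 reads per library. Family 1 held 50.7% ± 3.39 in cKO and 52.4% ± 2.04 in WT (SD, n = 4). The n counts FO and MZ libraries of a genotype as separate samples, though those of WT with the same number deviated together.

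The shares of 2 of the 4 stretches did not overlap between the genotypes. Stretch 4, the farthest from the D segments at chr12:115208095-116000461, held 27.8% and 27.3% (FO) and 24.6% and 25.3% (MZ) of the Ighv count in WT, and 23.8% and 21.5% (FO) and 22.0% and 18.1% (MZ) in cKO. All cKO values were below all WT values, at 21.3% ± 2.39 and 26.3% ± 1.51. Stretch 1, nearest the D segments, held 17.3% and 17.6% (FO) and 17.6% and 17.2% (MZ) in WT. In cKO it held 18.1% and 19.8% (FO) and 19.2% and 22.2% (MZ), so that all cKO values were above all WT values. All 9 members of family 5 lie in stretch 1, so that the difference of this stretch is not separate from that of family 5. Without the WT libraries numbered 1, where fewer libraries can overlap, stretch 3 did not overlap either, at 30.9% in cKO and 28.3% in WT. The means of stretches 1 and 4 were then 19.8% and 21.3% in cKO and 17.4% and 26.3% in WT. In stretch 4, 8 of 24 members had a cKO minus WT difference above 0, against 18, 18 and 21 of 24 in stretches 1 to 3, with 0 of them called. The counts above 0 were 8, 7, 5 and 3 of 24 in stretches 1 to 4 when the WT libraries numbered 1 were left out. Sex differs between the same libraries and cannot be told apart from genotype here.

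**Figure D5:**
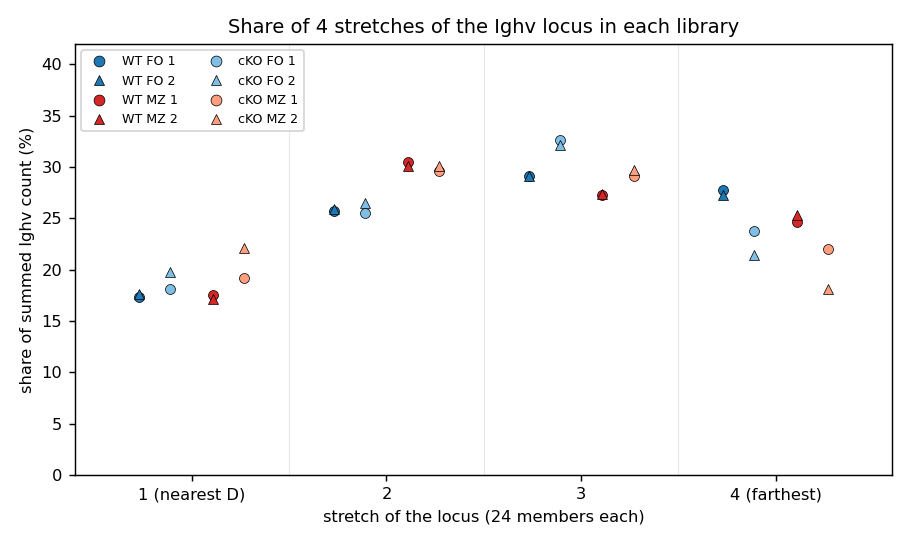
Share of the summed Ighv count (percent) in each of the 4 stretches of the locus, 24 members each, in the 8 libraries. In stretch 4, farthest from the D segments, the 4 cKO libraries are at 18.1% to 23.8% and the 4 WT libraries at 24.6% to 27.8%, and in stretch 2 the 4 MZ libraries are above the 4 FO libraries.

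With all 8 libraries, FO and MZ values of 4 segments with a known history in innate-like or early B cells were mixed. Ighv11-2 and Ighv12-3, which B-1 cells use against phosphatidylcholine, were at 9.98 to 39.8 and 7.71 to 70.5 normalized counts, with FO minus MZ differences of -0.06 (SE 0.513, adjusted p = 0.938) and 0.44 (SE 0.712, adjusted p = 0.672). Ighv11-2 was highest in WT MZ 2 (39.8) and WT FO 2 (30.4) and at 9.98 to 16.9 in the other 6 libraries. Ighv7-1, used against phosphorylcholine, was at 24.1 to 118 (0.25, SE 0.472, adjusted p = 0.718). Ighv5-2, much rearranged early in life, was at 2.89 to 127 (0.86, SE 0.918, adjusted p = 0.508). Leaving out single libraries turned the sign of the difference for each of the 4. Without both WT libraries numbered 1 the differences were -0.14 (Ighv11-2), 0.49 (Ighv12-3), -0.12 (Ighv7-1) and 0.48 (Ighv5-2). Ighv12-3 was then at 60.5 to 70.5 in FO and 36.9 to 50.7 in MZ, while FO and MZ values of the others overlapped.

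Regulators of heavy chain transcription and recombination were read from a list of 17 genes. Of these, 15 passed the filter on low values, and limma called 0 of them between FO and MZ and 0 between cKO and WT. Pax5, a B lineage factor needed for distal V segments to rearrange, Yy1, which acts in contraction of the locus, and Tcf12, an E protein, were 0.35 to 0.38 higher in FO on the log2 scale with adjusted p of 0.00438 to 0.00452 by limma, under 1.5-fold. Differences between FO and MZ ran from -0.33 (Gtf2i, adjusted p = 0.00732, limma) to 0.38 (Pax5) over the list. Ctcf was 0.20 higher in FO (adjusted p = 0.0195, limma), also under 1.5-fold. Pou2af1, which encodes the octamer coactivator OCA-B, was at 14348 to 18458 (FO minus MZ 0.11, adjusted p = 0.339). Rag1, the recombinase, was at 0 to 28.9, and Dntt, which adds bases at the joints, at 0 to 5.98.

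Markers of other cells were measured beside these results. The 5 T cell markers summed to 15.4 to 46.6 normalized counts. The 8 granulocyte markers summed to 1849 and the 6 erythroid ones to 13304 in cKO MZ 1, against 23.8 to 103 and 25.9 to 1007 in the other libraries, and leaving out cKO MZ 1 is among the alternatives given above. The 4 B-1 markers summed to 451 to 1184, with the FO range at 766 to 1168. The 11 plasma cell markers summed to 16689 to 55248, highest in the WT libraries numbered 1. The largest part of that sum was Irf4, at 28655 in WT FO 1 and 37342 in WT MZ 1, followed by Ighg3. Other plasma cell markers did not all move with the sum. Jchain was at 619 and 305 in these libraries, against 297 to 3692 in the others. In both libraries Sdc1 had the lowest value of the subset and Prdm1 the highest. Single markers of these lists moved with the subsets in both directions: limma called Cd5, Prdm1 and Ighg2b higher in MZ (FO minus MZ -1.19, -1.79 and -1.05) and Spn and Sdc1 higher in FO (1.68 and 2.99). The 6 macrophage markers summed to 371 and 280 in the WT libraries numbered 1, their lowest values, and to 436 to 1137 in the others, and 0 of the 6 were called. The part of these cells in the V segment shares was not tested.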

How the data were processed

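Total RNA of FO and MZ B cells was depleted of ribosomal RNA and sequenced as 50-base single-end reads by the authors, aligned to mm10 with HISAT2 and counted with featureCounts and htseq-count; versions, strand setting and the treatment of reads with several hits are not given in the sources used here. The authors deposited a normalized signal: gene counts divided by DESeq2 size factors, with no length correction. Whole reads were recovered from 100% of values (tolerance 0.01). The ATAC-seq samples were not analysed here. One item of the mouse design is not reported here. The members and gene lists were chosen with earlier results of these data known, and the rule on a mean of at least 10 uses the level, not a contrast. Of the members called between FO and MZ, Ighv8-6 met this rule only through its FO values.

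All 14761 genes with a mean of at least 10 were fitted as log2(normalized count + 1) with limma 3.58.1 (lmFit, eBayes with trend; 4 group means; R 4.3.3), with Benjamini-Hochberg adjustment over all of them; called means adjusted p up to 0.05 and at least 1.5-fold. Fold changes are on that scale and understate those of low genes. Recovered reads were tested with edgeR 4.0.16 (quasi-likelihood) and DESeq2 1.42.0 as alternatives. The tests were tested on simulated data. Members named one by one were the 10 with the highest mean share, the 10 with the smallest p in each direction between FO and MZ, the 5 in each direction between genotypes, the 3 of the interaction, and 6 segments of known history (Ighv11-2, Ighv12-3, Ighv7-1, Ighv7-3, Ighv5-2 and Ighv1-72); of the MZ side, Ighv2-6, Ighv2-3, Ighv10-3, Ighv1-80, Ighv5-17 and others did not pass and appear as values only where a result turned on them. Segments of the WT libraries numbered 1 were chosen after their values were seen. A share is a member's part of the summed count of the 96 members in a library; sums over members carry ranges and SDs and no p-value. The widest 95% interval of a family's share from counting alone was ± 0.832 percentage points (binomial; reads are not independent molecules). Coordinates and sequences are from GRCm38 with GENCODE M21, and RefSeq promoter windows from the same build. Motifs were searched as exact letters. Alternatives were a pseudocount of 0.5, no filter, quantile normalization, scaling members by their sum, a replicate block, leaving out each library and, chosen after seeing the data, leaving out both WT libraries numbered 1 and other blocks. Replicate numbers are shared between groups, but deviations of same-numbered libraries correlated between -0.296 (WT MZ with cKO MZ) and 0.591 (WT FO with WT MZ) over all genes. Over the 96 members the correlations ran from 0.100 (WT MZ with cKO MZ) to 0.871 (WT FO with WT MZ), and cKO FO with cKO MZ was at 0.145. Comparisons of cKO with WT count the 4 WT libraries as separate samples, though those of 1 number moved together over the members. No source used here says what a number marks, so the numbers were not taken as pairs.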

Additional observations from a re-analysis of the deposited data

How the results depend on the processing

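Between FO and MZ, the 10 members higher in FO became 6 with no filter on low counts, 19 with quantile normalization and 4 to 20 with 1 library left out, and the 4 higher in MZ became 2 to 8 with 1 library left out. Within WT, the 1 member higher in FO became 3 with quantile normalization, 7 with members scaled by the summed Ighv count, 2 with DESeq2 and 1 to 10 with 1 library left out, and the 3 higher in MZ became 5 with DESeq2 and 1 to 7 with 1 library left out. Within cKO, the 5 members higher in FO became 3 with no filter, 11 with members scaled by the summed count, 12 without both WT libraries numbered 1 and 0 to 11 with 1 library left out, and the 3 higher in MZ became 5, 5 and 1 to 5 under the last 3 of these. The comparison of cKO with WT had 0 members lower in cKO and 1 without both WT libraries numbered 1. Family shares that did not overlap between FO and MZ fell from 8 to 5 without the highest member of each family of 2 or more members, and those between cKO and WT went from 1 to 3 without both WT libraries numbered 1 and to 1 to 2 with 1 library left out. The cause of these moves was not tested, beyond the fewer libraries or members that some of them use.

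With the replicate number as a block, 14 members were higher in FO and 5 in MZ, within WT 2 and 5, and within cKO 6 and 3. The numbers are shared between groups and are not known to pair samples. With the number as a block within each genotype, chosen after seeing the data, the counts were 19 and 5, within WT 9 and 6, and within cKO 15 and 5. With the cKO MZ numbers exchanged, also chosen after seeing the data, 18 members were higher in FO over both genotypes, 7 and 5 were higher in FO and in MZ within WT, and 9 were higher in FO within cKO. Neither block that could be fitted for it gave a call between cKO and WT.

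The sign of the FO to MZ difference turned for 4 members that were not called with all libraries and no block. Ighv11-2 had 0.19 with quantile normalization and -0.52 to 0.39 with 1 library left out. Ighv12-3 had -0.26 to 1.14, Ighv7-1 -0.28 to 0.78 and Ighv5-2 -0.18 to 1.90 with 1 library left out, and Ighv7-1 had -0.12 without both WT libraries numbered 1. Ighv5-2 was called higher in FO with a block within each genotype (0.86, adjusted p = 0.0403, limma; 0.0403 to 0.886 over the alternatives). Of the values of single members under the alternatives, 584 kept their direction and side of the threshold, 51 lost the call, 10 gained one and 11 changed sign. Members near 10 normalized counts rest on about as many reads, the depth of reads unique to a segment is lower than its count, and with 2 libraries a group a difference under the spread of those 2 was not detectable.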
